A study of Homo sapiens with 19 samples.

Results

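BX795, a small-molecule kinase inhibitor, was compared with control siRNA in differentiated HepaRG cells, using 3 libraries per group. These 6 libraries, of 19 in the series, were chosen by their labels: the 3 BX795 columns and the 3 control columns of batch 2. HepaRG is a human liver tumour line whose progenitors give rise to both hepatocyte-like cells and cells of a biliary kind, and these were not separated before RNA was taken. Control wells were transfected with 20 nM of a negative control siRNA (siNC). In all batch 2 groups, controls included, the medium was changed at 24 h and at 48 h. BX795 wells contained 1 µM of the compound from the day of transfection, through a change of medium at 24 h and a change to serum-free induction medium at 48 h. The sources used here do not say whether BX795 wells also received siNC, or control wells a vehicle, so effects of the siRNA and of BX795 cannot be told apart. The remaining batch 2 libraries were 2 with interferon alpha (IFNa, 1000 U/mL, on the same schedule) and 2 with 1 µM BX795 and 20 nM ADAR siRNA. Whether IFNa wells also received siNC is not stated either. These libraries served for the spread between replicates and as further views of the same genes. Labels do not say that replicates were separate cultures, so p-values measure the spread between these libraries, which may be technical.

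BX795 was first described as an inhibitor of PDK1, the kinase that activates AKT and related growth kinases, and it is used mainly against TBK1 and IKK epsilon. TBK1 and IKK epsilon phosphorylate IRF3 and IRF7 when nucleic acid sensors such as RIG-I, MDA5 and STING are engaged, which switches on type I interferon genes. Both kinases also feed back on NF-kB signalling, and BX795 is known to hit further kinases, Aurora B among them. In hepatocytes the same stimuli meet a second programme, in which cytokines raise acute-phase proteins and lower drug-metabolising enzymes.

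The control libraries stood apart from BX795 libraries in base composition. The GC trend is the mean log2 level of genes above 60% GC minus that of genes below 40% GC. Each gene was first centred on its mean over the batch 2 libraries, so the trend is relative to the average of those libraries. The trend was 0.21, 0.84 and 0.69 in control replicates 1, 2 and 3. It was -0.17, -0.50 and -0.40 in the BX795 replicates, -0.31 and 0.06 in the IFNa replicates, and 0.00 and -0.42 with BX795 and ADAR siRNA. Controls and BX795 libraries did not overlap, and the means differed by -0.94 (exact permutation test, two-sided, p = 0.1, the smallest that 3 against 3 allows). Control replicates 2 and 3, with the steepest trend, were also the shallowest, at 15.6 and 13.1 M counts. Control replicate 1 had 22.8 M, BX795 replicates 21.5 to 29.2 M, and the other 4 libraries 25.0 to 34.7 M. The share of counts from mitochondrially encoded mRNA, 3.20%, 1.62% and 1.95% in the controls and 4.52%, 4.77% and 4.62% with BX795, separated the groups as well (p = 0.1 in the same exact permutation test). The share of the signal recognition particle RNAs RN7SL1 and RN7SL2 was 5.74%, 8.89% and 11.6% in controls and 6.65%, 3.67% and 3.47% with BX795 (p = 0.2, exact permutation test). For this reason each result below was also taken from a fit corrected for GC content, from a fit without control replicates 2 and 3, and from a comparison of BX795 with IFNa libraries, which leaves the controls out.

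Fold changes followed GC content closely. Among 377 tested genes of up to 35% GC, the median log2 fold change of BX795 against siNC was 0.59, and 47.5% were higher and 2.12% lower. Among 570 genes over 65% GC the median was -0.98, with 0 genes higher and 423 (74.2%) lower. Against IFNa the medians of these classes were 0.13 and -0.27. After GC correction the medians of all 8 classes lay between -0.02 and 0.01, which the correction is built to bring about. Whether this trend is a property of the cells or of the libraries was not tested.

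**Figure D1:**
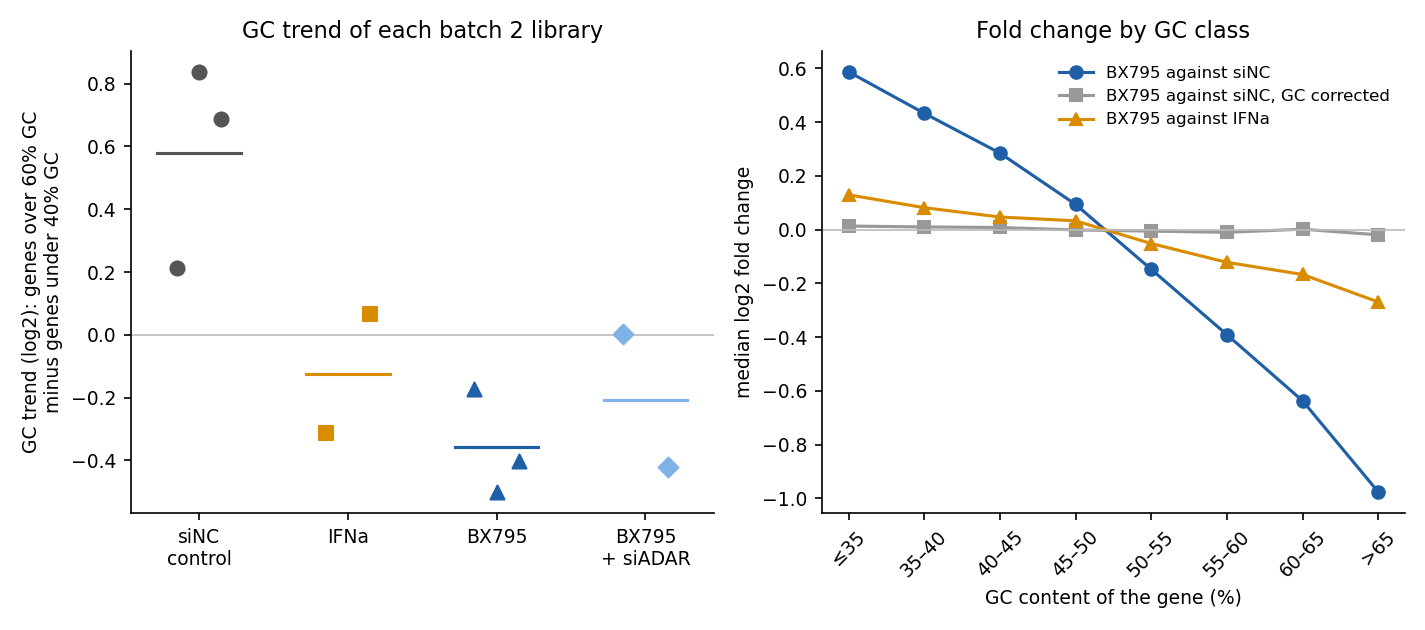
Left, GC trend on a log2 scale (vertical axis), relative to the mean of the batch 2 libraries, of each of the 10 libraries (points) with the group mean (lines). The 3 controls lie at 0.21 to 0.84 and the 3 BX795 libraries at -0.50 to -0.17. Right, median log2 fold change (vertical axis) in 8 classes of gene GC content in percent (horizontal axis) for BX795 against siNC, the same after GC correction, and BX795 against IFNa. The uncorrected line falls from 0.59 to -0.98 and the corrected line stays near 0, which the correction is built to bring about.

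Many genes differed between the BX795 and siNC libraries, with fold changes that followed GC content (above). The differences included a very large rise of CYP3A4, higher inflammatory chemokines, and lower acute-phase, endoplasmic reticulum (ER) chaperone, cell cycle and matrix genes. Of 20718 tested genes, 8712 (42.1%) passed at a Benjamini-Hochberg adjusted p of 0.05 (edgeR, quasi-likelihood test), with 4182 (20.2%) higher and 4530 (21.9%) lower. A change of at least 2-fold was estimated for 2021 of the called genes (9.75%), 685 higher (3.31%) and 1336 lower (6.45%). After GC correction 6017 of 18393 genes (32.7%) passed, 2956 higher (16.1%) and 3061 lower (16.6%), and 2054 higher (11.2%) and 2054 lower (11.2%) were called in both fits in the same direction. A further 134 genes were called in both fits with opposite signs. Without control replicates 2 and 3 the count was 1238 of 21634 genes (5.72%), 648 higher (3.0%) and 590 lower (2.73%). That fit keeps 1 control library, whose spread is assumed to be that of the other groups. The median log2 fold change of all tested genes was -0.01, and 0.00 after GC correction. List counts below are to be read beside the shares of all tested genes. These were 20.2% higher and 21.9% lower in the main fit, and 11.2% each in both fits. In the text, ± gives the standard error (SE) of a log2 fold change, "rose" and "fell" are used for genes that passed in the main test, and levels are CPM, counts scaled to library size with TMM factors, in the order of the replicates.

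CYP3A4 (ENSG00000160868.16; chromosome 7, 99756967 to 99784184 in GRCh38.p14), the main drug-oxidising cytochrome P450 of adult liver, rose further than any other gene under the naming rule. Its levels were 1.77, 1.88 and 1.39 CPM in the controls and 70.8, 87.6 and 74.8 CPM with BX795. A lack of overlap between the groups was part of the naming rule. The log2 fold change was 5.51 ± 0.21, or 45.6-fold (adjusted p = 3.06e-07). It was 37.3-fold after GC correction and 5.46 on the log2 scale without control replicates 2 and 3. The IFNa libraries held 3.19 and 2.32 CPM, above each control and far below the BX795 libraries. The libraries with BX795 and ADAR siRNA held 90.2 and 131 CPM. BX795 libraries exceeded IFNa libraries by 4.80 on the log2 scale (adjusted p = 1.19e-07). CYP3A genes are close relatives that can share reads, so values of single members are uncertain.

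Promoters of CYP3A genes are known to hold binding elements of PXR, the xenobiotic receptor encoded by NR1I2. The bases before the CYP3A4 start (chr7:99784185-99784434, minus strand, RefSeq, GRCh38.p14) and around the match of CYP3A5 (chr7:99680072-99680129, minus strand) are shown because both carry the same everted repeat, TGAACT and AGGTCA with 6 bases between, in capitals, and their levels are set side by side.
CYP3A4: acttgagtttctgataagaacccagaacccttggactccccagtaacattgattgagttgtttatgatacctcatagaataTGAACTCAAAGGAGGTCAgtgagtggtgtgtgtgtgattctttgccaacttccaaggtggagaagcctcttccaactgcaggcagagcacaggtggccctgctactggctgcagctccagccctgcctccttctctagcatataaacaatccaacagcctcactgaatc
CYP3A5: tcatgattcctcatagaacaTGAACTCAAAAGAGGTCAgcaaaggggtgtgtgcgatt
Counted from the start site, the match begins at position -169 in CYP3A4 and at position -113 in CYP3A5. Of 35116 RefSeq promoters searched on both strands from 250 bases before to 50 after the start, 3 (0.00854%) hold it, and 2 of 35 promoters of the phase I list. CYP3A5 stood at 254, 227 and 208 CPM in controls and 281, 305 and 314 CPM with BX795, a log2 fold change of 0.38 ± 0.11 that was 0.10 after GC correction (adjusted p = 0.277). The call of CYP3A5 also ended without BX795 replicate 2 or 3. NR1I2 itself, at 7.15, 10.4 and 7.82 CPM in controls and 4.83, 3.57 and 3.50 CPM with BX795, fell by 1.10 ± 0.22 on the log2 scale.

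Other phase I enzymes moved in both directions. Of 39 tested members of a list of 44, 14 rose and 11 fell, with 10 and 8 called in both the main and the GC-corrected fit, and a median of 0.23. Without control replicates 2 and 3, 6 rose and 4 fell. ALDH2, the mitochondrial aldehyde dehydrogenase of ethanol breakdown, went from 301, 356 and 319 CPM to 651, 692 and 689 CPM, a rise of 1.06 ± 0.09 on the log2 scale. AOX1, the aldehyde oxidase that oxidises nitrogen heterocycles, went from 807, 714 and 654 CPM to 1259, 1420 and 1417 CPM (0.91 ± 0.10). Neither gene showed any overlap between the groups, and 26.7% of all tested genes had every BX795 library above every control. CYP2B6, a P450 known as a target of the receptors CAR and PXR, was at 1.21, 1.61 and 0.733 CPM in controls and at 4.65, 4.62 and 4.69 CPM with BX795, a rise of 1.95 ± 0.23. The IFNa libraries had 0.305 and 0.275 CPM of CYP2B6, below all controls, and BX795 exceeded them by 3.97 on the log2 scale. Among the members that fell, CYP2E1, the ethanol-inducible P450, fell by 1.40 ± 0.27 (2.20, 3.22 and 2.36 CPM against 1.301, 0.873 and 0.792 CPM). It was not called without control replicates 2 and 3 (-1.16, adjusted p = 0.083).

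Genes of the aryl hydrocarbon receptor (AHR), the sensor of dioxins and polycyclic aromatics, split within the pathway. Of 10 tested members 3 rose and 4 fell, 3 and 3 in both fits, with a median of -0.09. CYP1A1, the classic inducible target, was at 2.20, 1.21 and 1.06 CPM in controls and at 9.06, 9.28 and 10.2 CPM with BX795, a rise of 2.61 ± 0.23 (adjusted p = 4.51e-05). Its groups did not overlap, which was a condition of the naming rule, and the IFNa libraries lay between them at 3.97 and 3.45 CPM. CYP1B1, a related P450 also found in mesenchymal cells, moved the other way, from 113, 128 and 125 CPM to 48.2, 46.1 and 44.3 CPM, a log2 fold change of -1.40 ± 0.09 (adjusted p = 4.53e-06). ALDH3A1, an aldehyde dehydrogenase of the same pathway, fell by 1.23 ± 0.13. CYP1A2, at 0.388, 0.201 and 1.14 CPM in controls and 0.790, 0.946 and 1.39 CPM with BX795, overlapped between the groups and was not called (0.95 ± 0.50, adjusted p = 0.144).

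In phase II metabolism, where products are conjugated for excretion, 5 of 36 tested members rose and 12 fell (3 and 9 in both fits, median -0.14). The lower count was 7 without BX795 replicate 2, BX795 replicate 3 or control replicate 2, and 4 without control replicates 2 and 3. SULT2A1, the sulfotransferase of bile acids and steroids, went from 20.6, 20.95 and 18.7 CPM to 7.34, 7.53 and 6.87 CPM, a log2 fold change of -1.47 ± 0.13 (adjusted p = 5.24e-05). MGST1, a membrane glutathione transferase, went from 331, 215 and 280 CPM to 668, 724 and 720 CPM, a rise of 1.35 ± 0.14. UGT1A6, a glucuronosyltransferase of planar phenols, rose by 0.84 ± 0.10. Each of these 3 genes had groups that did not overlap, against 26.7% of all tested genes with every BX795 library above every control and 26.4% below. NNMT (-0.01 ± 0.10) and GSTA2 (-0.08 ± 0.14) were not called.

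Membrane transporters moved mainly down, with 1 of 24 tested members higher and 10 lower (1 and 9 in both fits, median -0.13), and with 4 lower and 0 higher without control replicates 2 and 3. The higher count was 3 without control replicate 1 and 2 without control replicate 3 or BX795 replicate 1. SLC22A7, an organic anion uptake carrier, was at 5.43, 12.4 and 8.63 CPM in controls and at 1.21, 0.764 and 0.957 CPM with BX795, a log2 fold change of -3.17 ± 0.31. ABCG8, a subunit of the canalicular sterol exporter, went from 10.3, 13.8 and 10.6 CPM to 3.95, 3.64 and 4.19 CPM, a log2 fold change of -1.55 ± 0.15. SLC29A1, a nucleoside transporter, fell by 1.03 ± 0.13. All 3 were also lower than in the IFNa libraries, with log2 fold changes of -1.66, -0.98 and -1.07. The bile acid importer SLC10A1 (0.15 ± 0.39) and exporter ABCB11 (0.62 ± 0.44) were not called, at under 2 CPM in each of these libraries.

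Of 17 tested members of the bile acid synthesis list 6 rose and 5 fell (5 and 3 in both fits, median 0.09, or -0.11 after GC correction), and 5 rose and 1 fell without control replicates 2 and 3. AKR1D1, the steroid 5-beta-reductase, went from 0.819, 0.940 and 0.570 CPM to 6.69, 4.07 and 4.62 CPM, a rise of 2.69 ± 0.26. CYP39A1 and CYP7B1, oxysterol hydroxylases of the alternative pathway, rose by 1.09 ± 0.13 and 0.89 ± 0.11. AKR1D1 was lower in the 2 libraries with BX795 and ADAR siRNA, at 1.497 and 1.488 CPM, than in any library with BX795 alone. CYP7A1, the rate-limiting enzyme of the classic pathway, was under 1 CPM in all 6 libraries and fell by 2.03 ± 0.59, a call that ended without control replicates 2 and 3 (-1.83, adjusted p = 0.200).

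Among 28 nuclear receptors and liver transcription factors 5 rose and 12 fell (3 and 7 in both fits, median -0.35, or 0.05 after GC correction). Without control replicate 1 the higher count was 9, and it was 3 without control replicate 2 or 3 or BX795 replicate 2 or 3. Without control replicates 2 and 3, 2 rose and 2 fell. NR3C1, the glucocorticoid receptor, rose by 0.80 ± 0.10, from 100.2, 83.7 and 82.7 CPM to 149.5, 166 and 150.4 CPM. VDR, the vitamin D receptor, rose by 0.84 ± 0.12. CEBPA, a factor that maintains hepatocyte gene expression, went from 9.44, 13.8 and 16.1 CPM to 4.79, 3.09 and 3.33 CPM. Its log2 fold change of -1.81 ± 0.26 was -0.92 after GC correction. HNF4A, the central hepatocyte factor, stood at -0.23 ± 0.11 and was not called (adjusted p = 0.107).

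**Figure D2:**
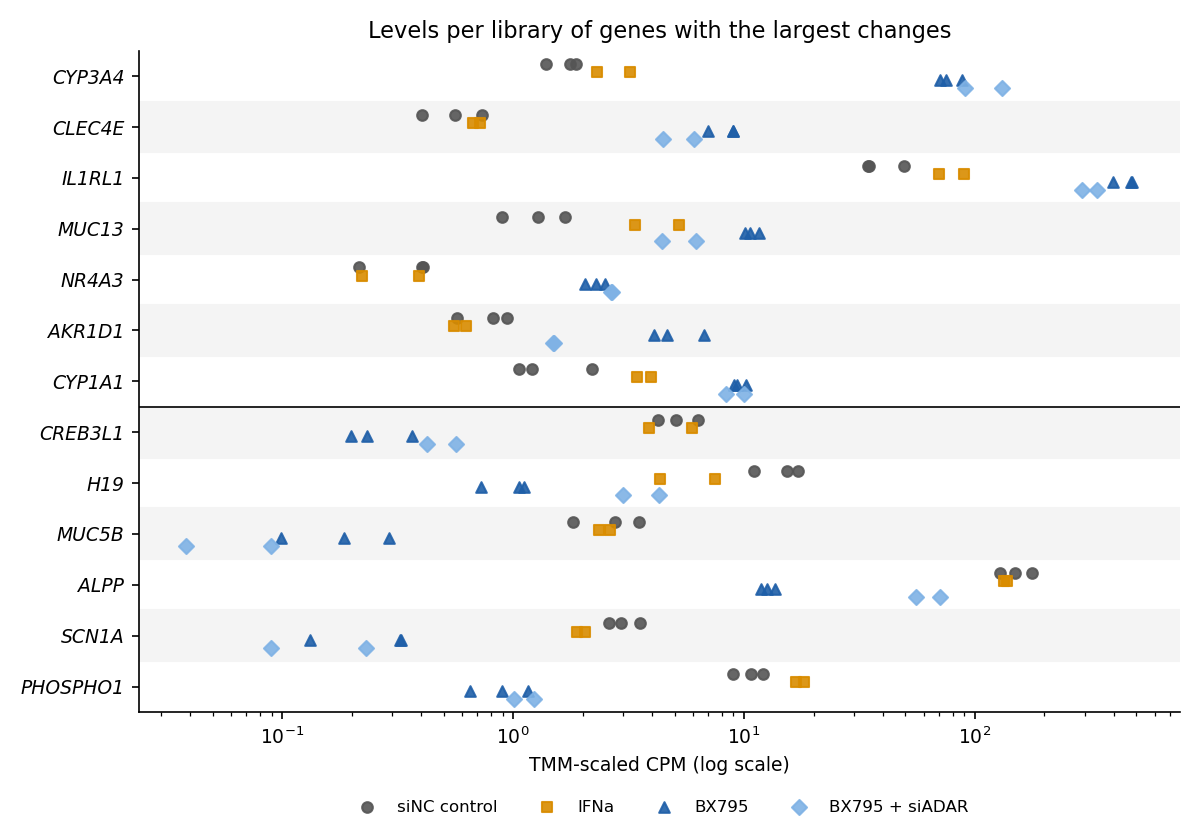
Levels per library (points, TMM-scaled CPM on a log axis) of genes with the largest changes, in siNC, IFNa, BX795 and BX795 with ADAR siRNA. Rows above the line are genes that rose with BX795 and rows below it are genes that fell. CYP3A4 lies at 1.39 to 1.88 CPM in siNC and 70.8 to 87.6 CPM in BX795, and ALPP at 128 to 176 CPM and 11.8 to 13.6 CPM.

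BX795 acts on kinase activity, so the mRNA levels of its known targets do not check the labels. TBK1 was at 25.7, 20.3 and 24.1 CPM in controls and at 30.3, 36.9 and 33.4 CPM with BX795, a rise of 0.52 ± 0.12 that was 0.14 after GC correction (adjusted p = 0.141). IKBKE, which encodes IKK epsilon, was at 15.3, 19.4 and 15.96 CPM and at 22.4, 21.9 and 22.1 CPM, a rise of 0.39 ± 0.11 (0.84 after GC correction), which was not called without BX795 replicate 3. PDPK1, which encodes PDK1, overlapped between the groups, at 94.6, 114 and 105 CPM against 95.9, 95.3 and 100.2 CPM (-0.10 ± 0.09, adjusted p = 0.347). ADAR, the interferon-inducible RNA editing enzyme, was at 266, 259.5 and 215 CPM in controls and 273, 302 and 294 CPM with BX795 (0.23 ± 0.10, adjusted p = 0.0799). IFNa libraries held 839 and 742 CPM of ADAR.

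Among 21 tested nucleic acid sensors and relays around TBK1, 8 rose and 5 fell (4 and 3 in both fits, median 0.16), and 4 rose and 1 fell without control replicates 2 and 3. STING1, the adaptor of cytosolic DNA sensing upstream of TBK1, was very even within the groups, at 21.97, 21.01 and 20.93 CPM in controls and 7.90, 8.08 and 7.62 CPM with BX795. Its log2 fold change of -1.44 ± 0.10 (adjusted p = 8.56e-06) was -1.09 after GC correction. The IFNa libraries held 25.2 and 25.5 CPM of STING1, and the libraries with BX795 and ADAR siRNA 12.0 and 10.8 CPM. RIGI, the sensor of short double-stranded RNA, went the other way, from 7.71, 4.63 and 5.70 CPM to 17.6, 19.6 and 15.8 CPM (1.53 ± 0.16). That level remained far below the 139 and 122 CPM of the IFNa libraries. AZI2, an adaptor that binds TBK1, rose by 0.77 ± 0.12. IFIH1, the sensor MDA5 (0.20 ± 0.09, adjusted p = 0.109), and CGAS, the DNA sensor (-0.82 ± 0.53, adjusted p = 0.23), were not called.

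Of 20 interferon genes 1 had enough counts to be tested. IFNE, known from epithelia, was at 1.85, 0.537 and 0.407 CPM in controls and 1.95, 2.18 and 2.81 CPM with BX795 (1.19 ± 0.42, adjusted p = 0.0415). IFNE was not called after GC correction (adjusted p = 0.147), nor without BX795 replicate 2 or 3 or control replicate 2 or 3.

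All 65 interferon stimulated genes were tested, and 16 rose and 24 fell, 8 and 15 in both fits, with a median of -0.02. After GC correction alone 10 were higher and 16 lower, where 16.1% and 16.6% of all genes were, so the share that rose is near that of all genes in each fit. Without control replicates 2 and 3, 4 rose and 6 fell. GBP3, a guanylate-binding GTPase, went from 47.1, 41.2 and 39.1 CPM to 82.6, 82.4 and 85.2 CPM, a rise of 0.97 ± 0.12. IFITM2, a membrane protein that restricts virus entry, went from 100.5, 103 and 100.3 CPM to 67.7, 57.6 and 60.5 CPM, a log2 fold change of -0.71 ± 0.09. MX2, an antiviral GTPase, went from 2.15, 3.36 and 2.44 CPM to 0.790, 0.764 and 0.990 CPM, a log2 fold change of -1.60 ± 0.21. IFNa libraries held 180 and 164 CPM of MX2, so both BX795 and control libraries lay far below the induced level. ISG15, a ubiquitin-like modifier, fell by 1.29 ± 0.27 (-0.54 after GC correction), and was not called without control replicates 2 and 3 (-0.75, adjusted p = 0.215). Against the IFNa libraries 63 of the 65 genes were lower with BX795 and none was higher (background 6.06% lower and 5.39% higher), a difference that contains the effect of IFNa itself.

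In the interferon receptor, JAK-STAT and IRF list, 6 of 21 rose and 2 fell (4 and 2 in both fits, median 0.12). Without BX795 replicate 2 the higher count was 3, and it was 0 without control replicates 2 and 3. The largest changes were in the feedback inhibitors. SOCS3, which shuts off signalling from interleukin 6 receptors, went from 40.1, 59.2 and 52.3 CPM to 11.9, 11.5 and 10.7 CPM, a log2 fold change of -2.15 ± 0.15 (adjusted p = 8.76e-06). SOCS1, which binds JAK kinases, went from 10.5, 13.8 and 13.2 CPM to 4.51, 3.17 and 3.00 CPM, a log2 fold change of -1.82 ± 0.21 that was -0.75 after GC correction. The IFNa libraries held 30.2 and 37.8 CPM of SOCS3 and 5.97 and 8.01 CPM of SOCS1, above all BX795 libraries. JAK1, a kinase of many cytokine receptors, rose by 0.45 ± 0.10, a call that ended without control replicates 2 and 3 (0.35, adjusted p = 0.102).

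NF-kB subunits and feedback targets moved mainly up. Of 26 tested members 17 rose and 2 fell, 12 and 1 in both fits, with a median of 0.38, and 9 rose and 1 fell without control replicates 2 and 3. The lower count was 1 without BX795 replicate 2 or control replicate 2 or 3. TNFAIP3 (A20), the deubiquitinase that dampens NF-kB, went from 134, 153.5 and 129 CPM to 310.3, 351.5 and 321 CPM, a rise of 1.24 ± 0.10 (adjusted p = 2.73e-05). TRAF1, an adaptor of TNF family receptors, rose by 0.99 ± 0.10, from 16.8, 21.3 and 18.3 CPM to 38.2, 36.9 and 36.4 CPM. BIRC3, a ubiquitin ligase at the same receptors, went from 746, 543 and 605 CPM to 1313, 1440 and 1376 CPM (1.12 ± 0.13, or 0.59 after GC correction). Both IFNa libraries, at 140.2 and 136 CPM of TNFAIP3 and 18.97 and 20.06 CPM of TRAF1, lay near the controls. RELB (0.06 ± 0.16) and NFKBIE (-0.20 ± 0.19) were not called in the main fit.

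Chemokines and interleukins also rose. Of 23 tested members of a list of 30, 11 rose and 3 fell (9 and 1 in both fits, median 0.39), and 9 rose and 1 fell without control replicates 2 and 3. The lower count was 1 without BX795 replicate 2 or 3 or control replicate 2 or 3. CXCL8, the neutrophil attractant interleukin 8, went from 191, 154 and 155 CPM to 478, 519 and 478 CPM, a rise of 1.56 ± 0.12 (adjusted p = 1.87e-05; 0.97 after GC correction). IL6, the cytokine that drives the acute-phase response of hepatocytes, went from 8.96, 6.85 and 5.95 CPM to 25.97, 24.92 and 25.28 CPM, a rise of 1.79 ± 0.15. CXCL1 rose by 1.38 ± 0.12, and CXCL11, a ligand of CXCR3, by 2.62 ± 0.30 from under 1 CPM in each control to 3.30, 3.24 and 2.51 CPM. These groups did not overlap, and 26.7% of all tested genes had every BX795 library above every control. For CXCL11 the lack of overlap was a condition of the naming rule. The IFNa libraries lay within or below the control range for CXCL8 (180.3 and 154 CPM), IL6 (5.44 and 5.22 CPM) and CXCL1 (55.04 and 50.36 CPM). CXCL2 (-0.03 ± 0.09) and IL1B (0.07 ± 0.53) were not called.

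Short stretches around kappa B motifs, GGNNTTTCC on either strand, are shown for 5 genes that rose (RefSeq, GRCh38.p14, plus strand, motif in capitals). Each is in the chemokine or the NF-kB list. They were picked after their values were seen, so they do not show how often genes with the motif rose. The windows are chr7:22727108-22727156 for IL6, chr4:73740458-73740506 for CXCL8, chr4:73869295-73869368 for CXCL1, chr2:227813743-227813791 for CCL20 and chr6:137867172-137867232 for TNFAIP3.
IL6: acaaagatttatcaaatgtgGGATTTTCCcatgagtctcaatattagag
CXCL8: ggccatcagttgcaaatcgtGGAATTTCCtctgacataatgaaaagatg
CXCL1: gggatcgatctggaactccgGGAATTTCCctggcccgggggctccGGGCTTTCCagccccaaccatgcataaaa
CCL20: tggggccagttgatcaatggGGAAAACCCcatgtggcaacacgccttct
TNFAIP3: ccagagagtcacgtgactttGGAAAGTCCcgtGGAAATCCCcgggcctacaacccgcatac
The matches of CCL20 and TNFAIP3 are on the minus strand. The motif occurs in 2198 of 35116 promoters (6.26%), in 12 of 22 promoters of the chemokine list and in 15 of 22 of the NF-kB list. The 12 include CXCL2, which was not called (above). CCL20, a chemokine for lymphocytes and dendritic cells, rose by 2.33 ± 0.21, from 11.4, 9.73 and 6.60 CPM to 43.8, 53.5 and 44.5 CPM.

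Among the 10 largest rises under the naming rule, IL1RL1, the receptor of interleukin 33, went from 49.4, 34.6 and 34.9 CPM to 396, 481 and 474 CPM, an 11.3-fold rise (3.50 ± 0.17 on the log2 scale, adjusted p = 8.12e-07). IFNa libraries held 89.9 and 70.1 CPM of IL1RL1, above the controls and far below BX795. CLEC4E, the Mincle receptor for dead cells and mycobacterial lipids, went from 0.560, 0.403 and 0.733 CPM to 6.97, 8.95 and 8.94 CPM, a 14.8-fold rise. MUC13, a membrane mucin, rose 8.08-fold, from 1.68, 1.28 and 0.896 CPM to 10.1, 11.6 and 10.7 CPM. NR4A3, an orphan nuclear receptor induced early by many stimuli, rose by 2.80 ± 0.32 from under 0.5 CPM in each control to 2.04, 2.51 and 2.28 CPM. All 4 kept a call without control replicates 2 and 3, at log2 fold changes of 3.19 for IL1RL1, 3.88 for CLEC4E, 2.68 for MUC13 and 3.38 for NR4A3. ZNF709, a zinc finger gene (2.83 ± 0.54), lost it (1.82, adjusted p = 0.063). RSC1A1, an intronless gene that overlaps another gene, rose by 2.61 ± 0.79 but had 3.06, 0 and 0 CPM in controls, and its call ended without control replicate 2 or 3 or BX795 replicate 2 or 3.

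**Figure D3:**
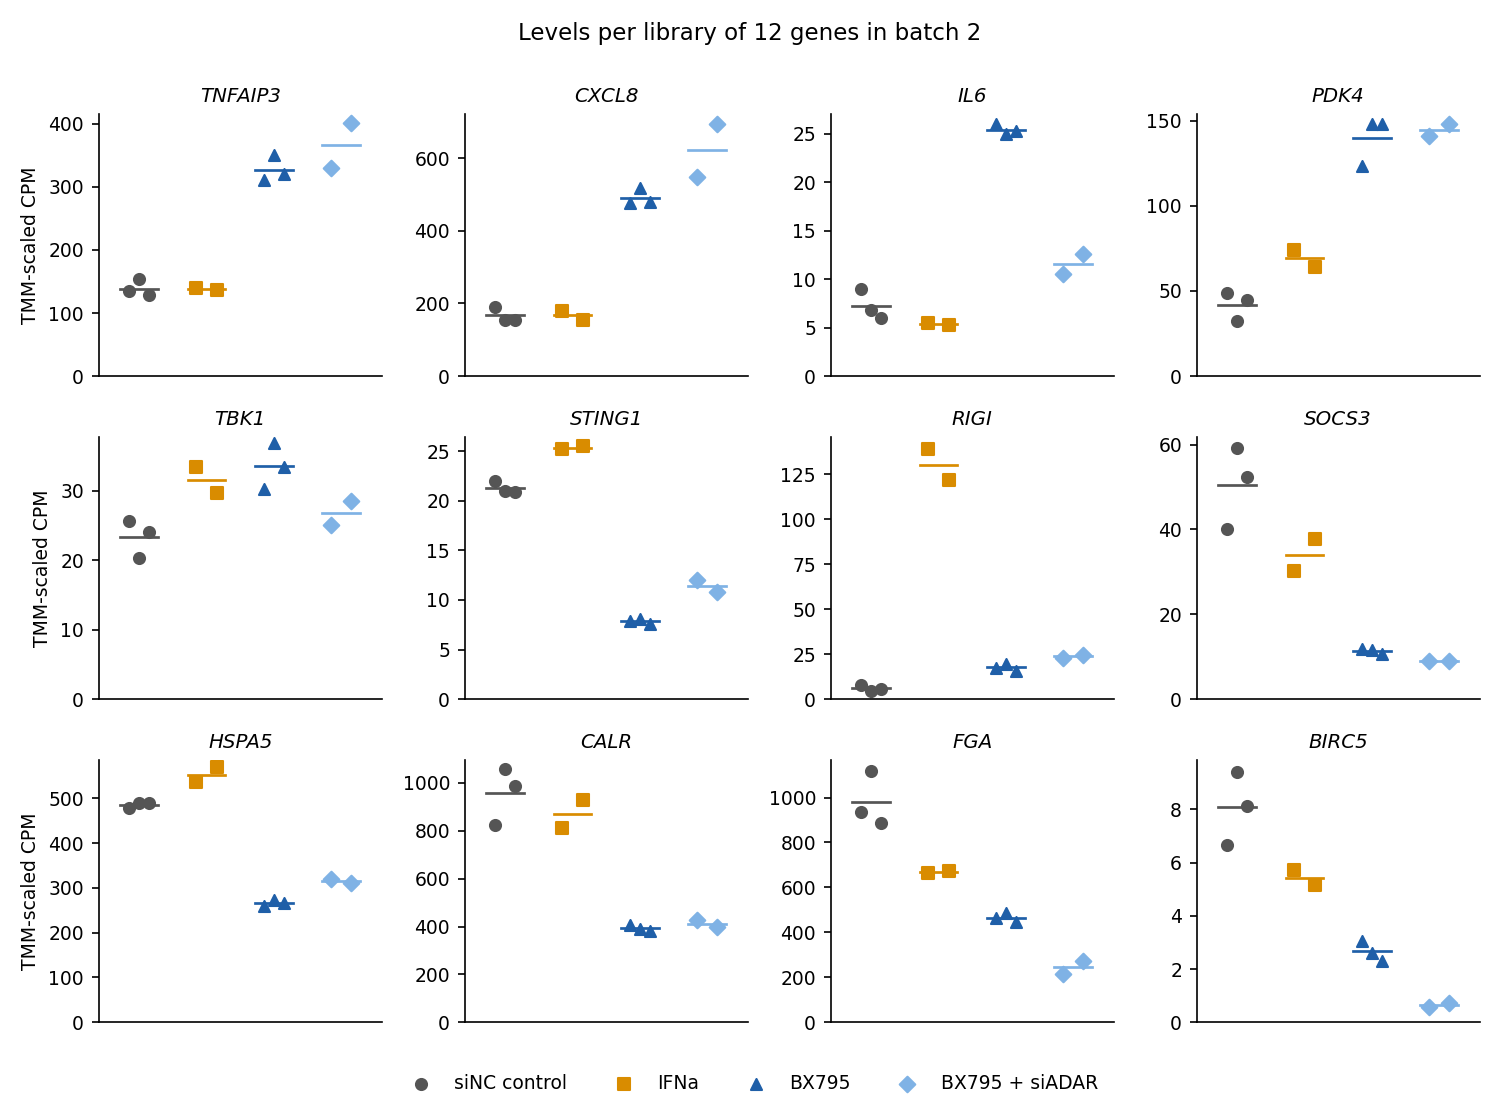
Levels per library (points; lines are group means) of 12 genes in TMM-scaled CPM, each on its own axis from 0, in siNC, IFNa, BX795 and BX795 with ADAR siRNA. TNFAIP3, CXCL8, IL6, PDK4, TBK1 and RIGI lie higher in the 3 BX795 libraries than in the 3 controls, and STING1, SOCS3, HSPA5, CALR, FGA and BIRC5 lie lower. RIGI is highest with IFNa, at 122 and 139 CPM.

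Acute-phase proteins fell while IL6 rose. Of 21 tested members none rose and 12 fell, 0 and 11 in both fits, with a median of -0.54. Leaving out any 1 library gave 10 to 12 lower members and at most 1 higher, and 9 were lower without control replicates 2 and 3. LBP, the lipopolysaccharide binding protein, went from 502, 571 and 419 CPM to 236.5, 243 and 232 CPM, a log2 fold change of -1.07 ± 0.11. FGA, the fibrinogen alpha chain, went from 934, 1120 and 889 CPM to 465.5, 484 and 447 CPM, a log2 fold change of -1.08 ± 0.11. HPX, which binds haem, went from 82.9, 140.4 and 89.2 CPM to 33.8, 31.3 and 31.6 CPM, a log2 fold change of -1.69 ± 0.18. In each of the 3 genes every BX795 library was below every control and below both IFNa libraries. Among all tested genes 26.4% had every BX795 library below every control. The libraries with BX795 and ADAR siRNA were lower still (133 and 149 CPM of LBP, 215 and 274 CPM of FGA, 20.6 and 20.0 CPM of HPX). The complement component C3 (-0.11 ± 0.08) and the protease inhibitor SERPINA1 (-0.21 ± 0.11), both also made under acute-phase cytokines, were not called. In bulk RNA, fewer cells of a type and less RNA per cell cannot be told apart, here and below.

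In the list of ER chaperones and unfolded protein response genes 4 of 22 rose and 12 fell, 3 and 11 in both fits, with a median of -0.36. Leaving out any 1 library gave 10 to 12 lower members, 2 were higher without BX795 replicate 2, and 9 were lower and 0 higher without control replicates 2 and 3. CALR, a calcium-binding lectin chaperone, went from 822, 1060 and 987 CPM to 407, 389.9 and 380.3 CPM, a log2 fold change of -1.29 ± 0.10 (adjusted p = 2.6e-05). HSPA5 (BiP), the master chaperone of the ER, was nearly constant within each group, at 478, 489.8 and 488 CPM in controls and 259, 272 and 267 CPM with BX795 (log2 fold change -0.87 ± 0.07). HYOU1, its nucleotide exchange factor, fell by 1.03 ± 0.09, from 317, 383 and 358 CPM to 178, 167 and 172.5 CPM. The IFNa libraries held 812 and 929.8 CPM of CALR, near the controls, and 537 and 569 CPM of HSPA5, above all of them. The libraries with BX795 and ADAR siRNA stood at 427 and 397 CPM of CALR and 320.4 and 310.1 CPM of HSPA5, below all controls, and above all libraries with BX795 alone for HSPA5 but not for CALR. CANX, a membrane-bound relative of CALR (-0.04 ± 0.09), and DNAJB9 (0.09 ± 0.12) were not called.

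The ER stress element, CCAAT and CCACG with 9 bases between, is the known site of ATF6 and NF-Y in chaperone promoters. It is shown in capitals for HSPA5 (chr9:125241344-125241593, minus strand), HSP90B1 (chr12:103930196-103930359), CALR (chr19:12938364-12938422) and CRELD2 (chr22:49918534-49918592), the last 3 on the plus strand of GRCh38.p14 (RefSeq), because each of these 4 members fell.
HSPA5: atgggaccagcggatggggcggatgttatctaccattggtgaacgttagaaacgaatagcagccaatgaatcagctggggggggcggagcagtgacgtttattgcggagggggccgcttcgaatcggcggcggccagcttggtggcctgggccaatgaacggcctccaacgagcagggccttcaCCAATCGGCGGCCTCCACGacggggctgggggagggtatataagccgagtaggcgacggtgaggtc
HSP90B1: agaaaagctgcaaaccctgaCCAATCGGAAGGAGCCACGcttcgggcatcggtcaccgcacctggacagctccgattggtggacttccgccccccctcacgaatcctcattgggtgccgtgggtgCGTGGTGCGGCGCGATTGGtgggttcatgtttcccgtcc
CALR: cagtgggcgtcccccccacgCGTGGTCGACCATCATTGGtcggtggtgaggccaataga
CRELD2: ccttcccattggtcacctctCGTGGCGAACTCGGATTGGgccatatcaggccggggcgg
The matches of CALR and CRELD2, and the downstream match of HSP90B1, are on the minus strand. Exact matches occur in 27 of 35116 promoters (0.0769%) and in 7 of 21 of this list (CALR, CANX, CRELD2, HSP90B1, HSPA5, PDIA6 and XBP1). Of these 7 genes, 5 fell in the main fit, CANX and PDIA6 being the exceptions. HSP90B1 (GRP94) fell by 0.80 ± 0.08, from 568, 542 and 529.5 CPM to 309.8, 327 and 306.5 CPM. CRELD2, a secreted ER stress protein, fell by 1.40 ± 0.20.

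Among 20 MHC class I genes 3 rose and 5 fell (1 and 3 in both fits, median -0.17), and 1 rose and 2 fell without control replicates 2 and 3, where 20.2% of all tested genes were higher and 21.9% lower in the main fit. The counts changed with single libraries, with 9 lower without control replicate 1, 3 lower without any other single library except BX795 replicate 1, and 1 higher without BX795 replicate 2 or 3. PDIA3, an oxidoreductase of the peptide-loading complex that the chaperone list also holds, fell by 0.81 ± 0.08, from 263, 268 and 282 CPM to 159.7, 149.5 and 152 CPM. B2M, the light chain of MHC class I, rose by 0.71 ± 0.11, from 1578, 1256 and 1409 CPM to 2147, 2423 and 2384 CPM, below the 3844 and 3415 CPM of IFNa. In the ATF4 list 5 of 27 rose and 8 fell (3 and 3 in both fits, median -0.33, or -0.04 after GC correction), and 1 rose and 1 fell without control replicates 2 and 3. Its shares too are near those of all tested genes, and the lower count was 14 without control replicate 1 and 4 without control replicate 2 or BX795 replicate 2 or 3. GDF15, a stress cytokine, fell by 1.35 ± 0.18 (-0.65 after GC correction), from 134.5, 211 and 197.5 CPM to 83.7, 64.3 and 64.8 CPM. STC2, a secreted glycoprotein, rose by 0.66 ± 0.12, and ATF5 fell by 0.90 ± 0.15 (-0.38 after GC correction), a call that ended without control replicates 2 and 3 (-0.69, adjusted p = 0.0769). ATF4 itself (-0.16 ± 0.11) and DDIT3 (-0.35 ± 0.17) were not called.

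Among 24 genes of PDK1, AKT and mTOR signalling 10 rose and 5 fell (6 and 2 in both fits, median 0.14), and 0 were called without control replicates 2 and 3. The higher count was 5 without BX795 replicate 2, and the lower count 3 without BX795 replicate 2 or 3 or control replicate 2 and 8 without control replicate 1. TSC2, a brake on mTOR, fell by 0.74 ± 0.12 (-0.19 after GC correction). PIK3CA, a catalytic subunit of PI3 kinase, rose by 0.80 ± 0.14, or 0.26 after GC correction. AKT1 stood at -0.61 ± 0.11 in the main fit and at 0.03 after GC correction (adjusted p = 0.688). None of TSC2, PIK3CA and AKT1 differed from the IFNa libraries at this threshold (-0.17, 0.05 and -0.35, adjusted p = 0.49, 0.88 and 0.092).

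AKT is known to hold down FOXO targets by keeping FOXO factors out of the nucleus. The list used here also holds FOXO factors and genes of insulin signalling and gluconeogenesis, and it moved mainly up. Whether AKT activity changed was not tested. In the FOXO and gluconeogenesis list 12 of 26 rose and 3 fell (9 and 1 in both fits, median 0.31), and 5 rose and 1 fell without control replicates 2 and 3. PDK4, which blocks pyruvate entry into mitochondria, went from 48.9, 32.4 and 44.8 CPM to 123, 148 and 148 CPM, a rise of 1.73 ± 0.14 (adjusted p = 2.96e-05). TXNIP, an inhibitor of glucose uptake, went from 46.3, 35.9 and 38.0 CPM to 81.03, 92.7 and 93.0 CPM, a rise of 1.15 ± 0.11. FOXO1 itself rose by 0.82 ± 0.10, from 200.2, 172.5 and 195 CPM to 303, 359 and 337 CPM. All 3 were also higher than with IFNa, by 1.02, 0.96 and 0.54 on the log2 scale. INSR, the insulin receptor (0.17 ± 0.09), and IGFBP1, an insulin-repressed secreted protein (0.62 ± 0.27), were not called. PCK1, the gluconeogenic enzyme, was at or under 0.201 CPM in all 6 libraries and was not tested.

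Glycolysis and hypoxia genes moved mainly down, with 5 of 27 higher and 13 lower (2 and 10 in both fits, median -0.23). Leaving out any 1 library gave 12 or 13 lower members, the higher count was 3 without BX795 replicate 2 or 3, and 1 rose and 5 fell without control replicates 2 and 3. CA9, a carbonic anhydrase induced by hypoxia, went from 7.32, 12.8 and 10.8 CPM to 2.00, 1.75 and 1.82 CPM, a log2 fold change of -2.47 ± 0.31. ADM, a vasodilator peptide, fell by 1.24 ± 0.13, and VEGFA, the endothelial growth factor, fell by 0.87 ± 0.10. PGK1 (-0.0046 ± 0.07) and GAPDH (-0.14 ± 0.10), glycolytic enzymes, were not called.

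Lipid genes were counted in 3 lists, and a difference between the lists was not tested. In fatty acid oxidation and PPAR alpha targets 5 of 25 rose and 11 fell (3 and 8 in both fits, median -0.23), with 7 lower without BX795 replicate 3 or control replicate 2, 3 higher without BX795 replicate 2 or 3, and 3 higher and 2 lower without control replicates 2 and 3. CREB3L3, a liver factor of lipid metabolism and the acute-phase response, fell by 1.5 ± 0.20, and PEX11A, which divides peroxisomes, rose by 0.70 ± 0.10. In fatty acid synthesis 2 of 18 rose and 6 fell (2 and 3 in both fits, median 0.07), with 4 higher without control replicate 1, and 1 of each without control replicates 2 and 3. SREBF1, the lipogenic transcription factor, fell by 1.19 ± 0.15 (-0.50 after GC correction). FASN, the fatty acid synthase, fell by 0.88 ± 0.14 in the main fit but stood at -0.04 after GC correction (adjusted p = 0.702). ELOVL5, an elongase of polyunsaturated fatty acids, rose by 1.01 ± 0.16. After GC correction alone 4 of the 18 genes were higher and 4 lower, where 16.1% and 16.6% of all genes were. In cholesterol synthesis 11 of 28 rose and 6 fell (6 and 1 in both fits, median 0.20). The higher count was 7 without BX795 replicate 2 or 3, the lower count 2 without control replicate 2 and 3 without control replicate 3 or BX795 replicate 2, and 2 rose and 0 fell without control replicates 2 and 3. ACAT2, an early enzyme of the pathway, rose by 0.62 ± 0.09, and TMEM97 by 0.73 ± 0.14, while the regulator SREBF2 fell by 0.55 ± 0.10 (-0.18 after GC correction).

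Cell cycle genes fell. Of 30 tested members none rose and 18 fell, 0 and 16 in both fits, with a median of -0.59. Leaving out any 1 library gave 12 to 16 lower members, and 6 were lower without control replicates 2 and 3. BIRC5 (survivin), a partner of Aurora B at the centromere, was at 6.68, 9.40 and 8.15 CPM in controls and at 3.07, 2.62 and 2.31 CPM with BX795, a log2 fold change of -1.60 ± 0.18. The libraries with BX795 and ADAR siRNA were lower again, at 0.576 and 0.714 CPM, and the IFNa libraries lay between, at 5.72 and 5.14 CPM. PLK1, a mitotic kinase, fell by 1.46 ± 0.20, and MCM4, a subunit of the replication helicase, fell by 0.71 ± 0.09, from 36.3, 39.9 and 40.6 CPM to 24.8, 23.1 and 23.5 CPM. AURKB, the Aurora B kinase itself, fell by 1.12 ± 0.24 from 3.02, 4.16 and 3.10 CPM to 1.91, 1.67 and 1.16 CPM, a call that ended without control replicates 2 and 3 (-0.94, adjusted p = 0.105). PCNA (-0.04 ± 0.08) and CCNB2 (0.22 ± 0.57) were not called.

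Of 22 tested replication-dependent histone genes 2 rose and 13 fell (2 and 8 in both fits, median -0.73), with 1 of each called without control replicates 2 and 3. Most of these mRNAs lack poly(A) tails, and rRNA removal keeps them in the libraries. H3C2 fell by 1.58 ± 0.23, from 19.1, 30.7 and 21.8 CPM to 10.6, 6.58 and 6.799 CPM, and H1-5 fell by 1.72 ± 0.28. H2BC21, which is also made as a polyadenylated mRNA outside S phase, rose by 0.99 ± 0.15. The IFNa libraries held 7.91 and 9.85 CPM of H3C2 and 2.06 and 3.18 CPM of H1-5, within or below the range of the BX795 libraries, and none of the 22 genes was lower with BX795 than with IFNa at this threshold.

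p53 targets were split, with 8 of 25 higher and 9 lower (6 and 7 in both fits, median -0.09) and 1 of each without control replicates 2 and 3. CDKN1A (p21), an inhibitor of cyclin-dependent kinases, fell by 0.59 ± 0.08 (-0.17 after GC correction). TP53INP1, a stress-induced autophagy protein, rose by 0.85 ± 0.14 and TP53I3, an oxidoreductase, fell by 0.73 ± 0.12, and neither was called without control replicates 2 and 3 (0.60 and -0.57, adjusted p = 0.0644 and 0.0804). Of 28 MAP kinase feedback and immediate early genes 9 rose and 7 fell (7 and 2 in both fits, median 0.13). The higher count was 5 without BX795 replicate 3 or control replicate 2, the lower count 4 without BX795 replicate 2 or 3 or control replicate 2 or 3, and 5 rose and 1 fell without control replicates 2 and 3. FOSB, an AP-1 subunit, went from 14.3, 14.3 and 14.9 CPM to 7.43, 5.20 and 5.38 CPM, a log2 fold change of -1.28 ± 0.15. EREG, an EGF receptor ligand, rose by 1.29 ± 0.18, and PHLDA1 by 0.71 ± 0.10. MYC (-0.15 ± 0.09) and EGR1 (0.04 ± 0.10) were not called.

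YAP and TEAD targets, which respond to cell shape and tension, split as well, with 9 of 24 higher and 6 lower (8 and 5 in both fits, median 0.14), and 6 and 2 without control replicates 2 and 3. AXL, a receptor tyrosine kinase, went from 190, 236.5 and 223 CPM to 118, 120.1 and 115 CPM, a log2 fold change of -0.88 ± 0.09. TEAD1, the DNA-binding partner of YAP, rose by 1.02 ± 0.14, and ARHGEF17, a guanine nucleotide exchange factor, fell by 1.33 ± 0.17 (-0.65 after GC correction). In the lysosome and autophagy list 8 of 27 rose and 8 fell (7 and 6 in both fits, median 0.04), and 2 rose and 1 fell without control replicates 2 and 3. CTSD, a lysosomal protease, fell by 1.20 ± 0.12 (-0.44 after GC correction), from 1830, 2389 and 2182 CPM to 986, 884 and 915.5 CPM. GABARAPL1 and the cargo receptor NBR1 rose by 0.61 ± 0.09 and 0.56 ± 0.09. In the NRF2 antioxidant list 6 of 25 rose and 7 fell (1 and 3 in both fits, median 0.05), and 1 rose and 3 fell without control replicates 2 and 3. Among all tested genes 20.2% were higher and 21.9% lower in the main fit, so the main-fit shares of this list are near those of all genes. TKT, a transketolase, fell by 0.58 ± 0.08, and FTL, the ferritin light chain, fell by 0.69 ± 0.12. OSGIN1 fell by 0.83 ± 0.14, but only before GC correction (adjusted p = 0.569 after it).

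**Figure D4:**
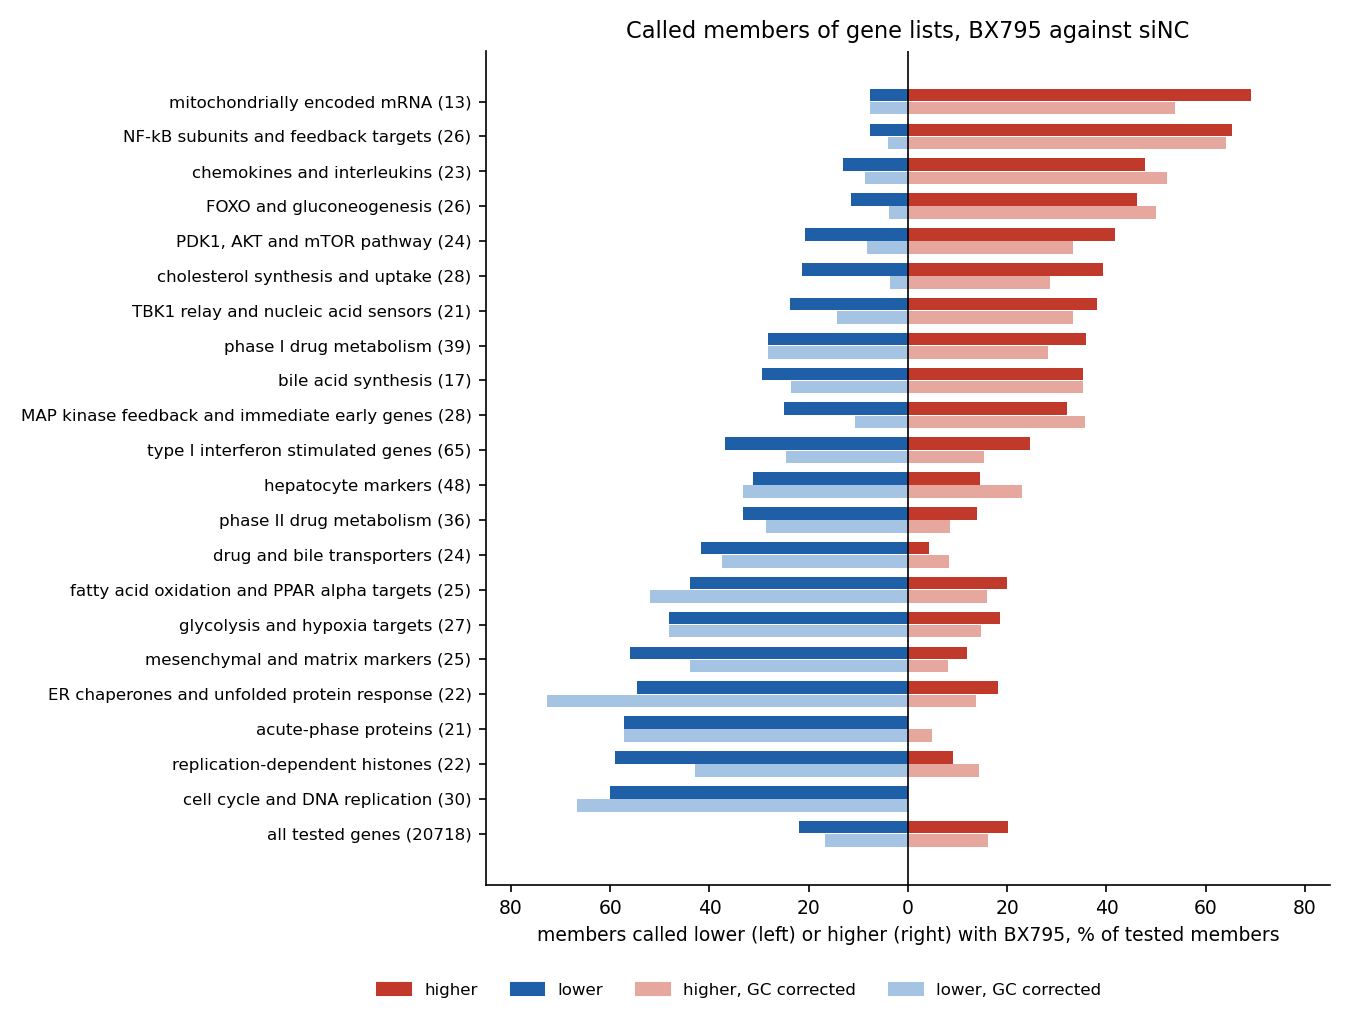
Percentage of tested members (horizontal axis) called lower (left) and higher (right) with BX795 against siNC in 21 gene lists and in all tested genes, with the number tested in brackets. Dark bars show the main fit and pale bars the fit after GC correction. Among all genes 20.2% were higher and 21.9% lower in the main fit, while cell cycle genes and acute-phase proteins have no dark bar to the right.

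Hepatocyte markers were abundant, and blood cell markers were near 0. Summed hepatocyte markers reached 14532 to 16781 CPM in controls and 18025 to 19406 CPM with BX795, while 7 of 48 tested members rose and 15 fell (7 and 9 in both fits, median -0.28), with 3 of each without control replicates 2 and 3. GLUL, the glutamine synthetase of pericentral hepatocytes, rose by 0.73 ± 0.09, from 1369, 1176 and 1279 CPM to 2001, 2152 and 2183 CPM. AHSG (fetuin A) fell by 2.25 ± 0.30, from 4.01, 7.05 and 3.26 CPM to 1.02, 0.909 and 1.06 CPM, and the asialoglycoprotein receptor ASGR1 fell by 1.18 ± 0.18. Albumin mRNA (ALB) was high in all libraries, at 7391, 8195 and 6851 CPM in controls and 6338, 5905 and 5989 CPM with BX795. Its log2 fold change of -0.30 ± 0.10 lost its call without control replicate 2 or BX795 replicate 2 or 3.

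Biliary and progenitor markers summed to 1216 to 1554 CPM in controls and 773 to 838 CPM with BX795, with EPCAM at 0 in all 6 libraries. Of 17 tested members 5 rose and 6 fell (4 and 5 in both fits, median -0.18), and 4 rose and 5 fell without control replicates 2 and 3. KRT19, a biliary keratin, went from 169.7, 241 and 248 CPM to 79.3, 63.3 and 71.5 CPM, a log2 fold change of -1.62 ± 0.16 (-0.99 after GC correction). The integrin ITGB4 fell by 1.54 ± 0.17 (-0.79 after GC correction) and the laminin LAMA5 fell by 1.38 ± 0.16 (-0.46 after GC correction). KRT7, another biliary keratin, moved the other way, from 3.79, 4.16 and 4.81 CPM to 10.1, 9.57 and 8.85 CPM, a rise of 1.17 ± 0.16. SOX9, a progenitor factor, rose by 0.57 ± 0.10.

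Mesenchymal and matrix markers fell, with 3 of 25 higher and 14 lower (2 and 10 in both fits, median -0.57), and 0 higher and 10 lower without control replicates 2 and 3. Their sum, which FN1 dominates, was 8825 to 10686 CPM in controls and 8591 to 10140 CPM with BX795, so the groups overlapped in sum. SPARC, a collagen-binding matrix protein, went from 67.9, 76.9 and 72.7 CPM to 31.7, 30.8 and 31.0 CPM, a log2 fold change of -1.22 ± 0.08 (adjusted p = 8.89e-06). POSTN (periostin) fell by 1.56 ± 0.12, from 33.3, 28.9 and 31.3 CPM to 9.62, 11.1 and 11.1 CPM, and MMP2, a gelatinase, fell by 1.79 ± 0.16, from 5.21, 5.51 and 5.78 CPM to 1.53, 1.60 and 1.62 CPM. IFNa libraries held 72.7 and 80.1 CPM of SPARC, within or above the control range, and 47.98 and 45.18 CPM of POSTN, above all controls. The libraries with BX795 and ADAR siRNA held 31.5 and 31.7 CPM of SPARC, like BX795 alone. FN1 (0.07 ± 0.14) was not called.

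Of 22 macrophage, leukocyte and endothelial markers, 13 had under 10 counts over the 6 libraries and CLEC4G, NKG7 and TYROBP were among those with 0. The sum of 483 to 543 CPM in controls and 684 to 725 CPM with BX795 came mostly from KDR, which rose by 0.50 ± 0.08, while CD14, which hepatocytes also make, fell by 1.62 ± 0.19 and was the only member called lower, or 1 of 2 without control replicate 2. Whether shifts between hepatocyte-like, biliary-like and matrix-producing cells contribute to the gene groups above was not tested.

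Most mitochondrially encoded mRNAs were higher with BX795 than in the controls in the main fit. The share of counts given above is drawn from the same counts. Of 13 mitochondrially encoded mRNAs 9 rose and 1 fell (7 and 1 in both fits, median 0.72), but 5 rose without BX795 replicate 1 or control replicate 3, none fell without BX795 replicate 2 or 3 or control replicate 3, and 0 were called without control replicates 2 and 3 or against IFNa. MT-ND2 was at 1355, 772 and 927 CPM in controls and 2122, 1988 and 2026 CPM with BX795 (1.01 ± 0.18), and the IFNa libraries had 1766 and 1483 CPM. MT-CYB stood at 1.12 ± 0.22 and MT-ND1 at 0.82 ± 0.15. Control replicate 1 was the highest of the controls for all 3 mRNAs. Of 34 nuclear genes of oxidative phosphorylation 6 rose and 11 fell (3 and 8 in both fits, median -0.03), with 7 lower without BX795 replicate 2 or control replicate 2 or 3, 3 higher without BX795 replicate 2 or 3, and 0 higher and 1 lower without control replicates 2 and 3. ATP5MC1, a subunit of the ATP synthase rotor, fell by 0.47 ± 0.08. NDUFV1 of complex I fell by 0.82 ± 0.14 (-0.33 after GC correction), and CYC1 stood at -0.62 ± 0.12 in the main fit but at 0.18 after GC correction (adjusted p = 0.0695).

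Counts of changed ribosomal protein mRNAs depended on single libraries. Of 58 tested 5 rose and 22 fell (3 and 11 in both fits, median -0.15). The lower count was 5 without BX795 replicate 2, 10 without BX795 replicate 3, 7 and 8 without control replicate 2 and 3, and 0 without both controls. Without BX795 replicate 2 or 3 the higher count was 1, and it was 3 without BX795 replicate 1 or control replicate 2, and 2 without control replicate 3. Against IFNa 19 were higher and 0 lower. RPL19 fell by 0.48 ± 0.10, RPL18 fell by 0.67 ± 0.15 and RPS9 fell by 0.59 ± 0.13, and none of the 3 differed from IFNa (-0.28, 0.05 and 0.13). Among 21 nuclear and small noncoding RNAs 3 rose and 6 fell (0 and 2 in both fits, median -0.17), with 1 lower without BX795 replicate 2, 2 without BX795 replicate 3 or control replicate 3, and 1 higher without BX795 replicate 3. The main-fit shares are near the 20.2% higher and 21.9% lower of all tested genes. SNORD3A, which guides rRNA processing, fell by 1.19 ± 0.27. MALAT1 (0.46 ± 0.12) and XACT (0.65 ± 0.17) were not called after GC correction (adjusted p = 0.176 and 0.406), and XACT was not called without BX795 replicate 3.

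Among 9 tested APOBEC3 and ADAR enzymes, which deaminate DNA or RNA, 0 rose and 4 fell (0 and 2 in both fits, median -0.42). The lower count was 2 without any BX795 library or control replicate 3, 1 rose without control replicate 1, and 0 were called without control replicates 2 and 3. APOBEC3F fell by 0.76 ± 0.14, from 31.8, 39.1 and 43.4 CPM to 26.3, 20.4 and 20.8 CPM, and APOBEC3C fell by 0.67 ± 0.16. ADARB1 stood at -0.28 ± 0.08 (adjusted p = 0.021), and was called in 1 of 6 fits with a library left out and not after GC correction. Of 7 tested metallothionein and metal response genes 1 rose and 2 fell (1 and 0 in both fits, median -0.25). MTF1, the metal-sensing factor, rose by 0.54 ± 0.12. MT1X stood at -0.41 ± 0.12 and MT1F at -0.88 ± 0.26, and neither was called without control replicate 2 or BX795 replicate 2 or 3.

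Among the 10 largest falls under the naming rule, CREB3L1, a membrane-bound factor that drives collagen secretion, went from 4.22, 6.31 and 5.05 CPM to 0.232, 0.364 and 0.198 CPM, a log2 fold change of -4.26 ± 0.31 on the log2 scale. H19, an imprinted noncoding RNA of fetal liver, went from 11.03, 17.1 and 15.4 CPM to 1.12, 1.06 and 0.726 CPM, a log2 fold change of -3.91 ± 0.29, while the IFNa libraries lay between at 4.30 and 7.46 CPM. ALPP, the placental alkaline phosphatase, was much more abundant, at 128, 148.5 and 176 CPM in controls and 13.6, 11.8 and 12.6 CPM with BX795 (log2 fold change -3.57 ± 0.14, adjusted p = 3.06e-07). The IFNa libraries held 133 and 138 CPM of ALPP, like the controls, and the libraries with BX795 and ADAR siRNA 70.8 and 55.3 CPM, between the groups. MUC5B, a secreted mucin, fell by 3.77 ± 0.41, SCN1A, a sodium channel subunit, fell by 3.55 ± 0.37, and PHOSPHO1, a phosphatase of bone mineralisation, fell by 3.52 ± 0.21. The call of these 6 genes after GC correction was part of the naming rule. Without control replicates 2 and 3 their log2 fold changes were -3.97, -3.52, -3.33, -3.22, -3.50 and -3.28, in the order named. LY6D, at 1.47, 1.14 and 1.96 CPM in controls and 0, 0 and 0.132 CPM with BX795, had 4 counts in all over the BX795 libraries, each in replicate 3, so its fitted log2 fold change of -4.80 ± 0.73 rests on that library (-8.22 without it) and is not a measured size. The fitted value of LY6D was -4.77 without control replicates 2 and 3. CNTFR (-3.99 ± 0.77), F8A3 (-3.98 ± 0.84) and FOXO6 (-3.76 ± 0.75) also fell, all of them from under 5 CPM, and none was called without control replicates 2 and 3 (-2.70, -2.60 and -2.86, adjusted p = 0.126, 0.165 and 0.121). F8A3 has near-identical copies, so its counts are uncertain.

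The comparison with IFNa used the same BX795 libraries and no control library. It asked which differences are seen without the siNC libraries, although a smaller GC slope is present in it too (above), and interferon stimulated genes in it carry the IFNa effect. Of 20718 genes 2371 (11.4%) passed, 1116 (5.39%) higher and 1255 (6.06%) lower with BX795. Outside the interferon stimulated genes the largest rises were CYP3A4 (4.80 ± 0.22), CYP2B6 (3.97 ± 0.31), CLEC4E (3.56 ± 0.25), CYP1A2 (3.13 ± 0.67) and LTB (3.12 ± 0.53). The call of CYP1A2 ended without IFNa replicate 1 (adjusted p = 0.105) or 2 (adjusted p = 0.0519). LTB, the membrane anchor of lymphotoxin, was at 0.111 and 0.393 CPM with IFNa, 3.16, 1.31 and 1.85 CPM with BX795 and 1.21, 0.806 and 1.47 CPM in controls, where it was not called against BX795 (adjusted p = 0.101). The largest falls were PHOSPHO1 (-4.25 ± 0.22), CREB3L1 (-4.18 ± 0.32), LAMP3 (-4.11 ± 0.29) and MUC5B (-3.68 ± 0.42), as log2 fold changes. LAMP3, an interferon-inducible lysosomal protein, was at 8.50 and 7.22 CPM with IFNa and under 1 CPM in each control and BX795 library. HSH2D, a haematopoietic adaptor also among the largest falls, had 1.11 and 1.22 CPM with IFNa and 2 counts in all over the BX795 libraries, so no fold is given.

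The gene groups were counted in this comparison too, and as it shares the BX795 libraries its counts are given as values only. Against IFNa 9 of 23 chemokines and interleukins were higher and 1 lower, and 11 of 26 NF-kB genes higher and 0 lower. Of 26 FOXO and gluconeogenesis genes 9 were higher and 2 lower. Of 21 acute-phase genes 6 were lower and 0 higher, of 22 ER chaperone genes 8 lower and 1 higher, of 30 cell cycle genes 8 lower and 1 higher, and of 25 mesenchymal genes 10 lower and 2 higher. Glycolysis and hypoxia genes were lower in 15 of 27 cases and higher in 1. Among 22 histone genes 3 were higher and 0 lower, and among 24 PDK1, AKT and mTOR genes 0 were higher and 1 lower.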

How the data were processed

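Total RNA of 19 HepaRG libraries was depleted of rRNA, made into directional libraries and sequenced as paired reads, per the labels' protocols. The deposited table holds expected counts of 78894 genes, and the submitters' processing notes name STAR, Salmon and GRCh38.p14, with no versions. The sources used here give no annotation release and no options of these tools. Of these expected counts 94.8% were within 0.005 of a whole number, and all were rounded. Groups followed the labels, and the members, gene lists and tests were chosen with earlier results of these data known.

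The 10 batch 2 libraries (13.1 to 34.7 M counts) entered 1 fit with 4 groups and 6 residual degrees of freedom, in edgeR 4.0.16 under R 4.3.3 with TMM scaling, filterByExpr and the quasi-likelihood test. P-values were adjusted over all 20718 tested genes, and the common biological coefficient of variation was 14.2%. For the GC correction, a lowess curve (span 0.3) of each library's log2 deviation on the GC percentage of each gene's longest GENCODE v29 transcript entered as offsets, for the 18393 genes with a GC value. SOD2, H3C2 and UGT1A3 had none. The fits were tested on simulated data. Alternatives were a replicate block, DESeq2 1.42.0, other sets of libraries, no filter, and leaving out libraries. Replicate numbers were not used as pairs in the main fit. Same-numbered control and BX795 libraries correlated at -0.35, -0.12 and 0.01 in their deviations from group means. Other same-numbered pairs were positive for control and IFNa (0.45 and 0.19) and for BX795 without and with ADAR siRNA (0.30 and 0.35). They were negative for IFNa and BX795 (-0.34 and -0.30), and for ADAR siRNA with BX795 against control (-0.375 and -0.17) and IFNa (-0.40). The last is a single value, because deviations within a group of 2 libraries mirror each other. The GC trend enters all these deviations too, so they do not settle whether numbers pair samples.

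Named genes were the 10 largest rises and 10 largest falls against siNC and the 5 of each against IFNa (outside interferon stimulated genes). Each was called in the main fit and, in the same direction, after GC correction. Each also reached 1 CPM and did not overlap between groups. Up to 3 called members per list (39 lists, 1050 genes), TBK1, IKBKE, PDPK1, ADAR and up to 2 uncalled members per list were added. NR1I2, CYP3A5, CYP2E1, CYP7A1, ISG15, CCL20, HSP90B1, CRELD2, AURKB, KRT7, SOX9, ALB and PCK1 were chosen after their values were seen. Reads of metallothioneins, SAA genes and the CYP2C, CYP3A, GSTA, UGT1A and UGT2B families can be split between close relatives. Results of some genes are not reported here.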

Additional observations from a re-analysis of the deposited data

How the results depend on the processing

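The number of genes called against siNC, 8712, was 6017 with GC correction, 1238 without control replicates 2 and 3, and 5386 (without BX795 replicate 2) to 9974 (without control replicate 1) when 1 library was left out. It was 8621 by DESeq2's Wald test, 8704 with DESeq2 size factors, 8137 with the compared groups alone and 10885 with all 19 libraries. With no filter on low counts the calls split into 5036 higher and 3607 lower (58.3% higher, against 48%). Against IFNa the count of 2371 was 4354 with all 19 libraries, 3827 with GC correction, and 884 (without IFNa replicate 2) to 1767 (without BX795 replicate 1) with 1 library left out, and 39.8% of calls were higher with no filter, against 47.1%. With the replicate block the counts were 6886 against siNC and 1231 against IFNa. They were 4984 against siNC with the block and GC correction together. Whether replicate numbers pair the samples is not known.

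Of 133 named genes with a GC value, 121 kept direction and call after GC correction. The 10 largest rises and 10 largest falls were named on that condition, so they could not lose it. AKT1, -0.61 in the main fit, was 0.0336 after GC correction and 0.0340 with the block added, and CYC1, -0.62, was 0.18 and 0.18. Of 134 named genes, 97 kept direction and call without control replicates 2 and 3, and 133 by DESeq2's Wald test. The cause of these differences was not tested. The difference in GC trend between the groups was -1.12 to -0.81 with 1 library left out. Control replicates 2 and 3 had the fewest counts, 15.6 and 13.1 M, and whether depth moves these counts was not tested.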
